A study of Mus musculus with 18 samples.

Results

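The genes of type I interferon receptor signalling were followed in dendritic cells sorted from mouse spleen. The set was given as 9 symbols: the receptor chains Ifnar1 and Ifnar2, the receptor kinases Jak1 and Tyk2, the transcription factor subunits Stat2 and Irf9, and the interferon regulatory factors Irf7, Irf3 and Irf5. All 9 were among the 15219 genes listed for all 3 subsets, and all 9 were among the 13539 genes that passed the filter on low counts. RNA-seq had been done on plasmacytoid dendritic cells (pDC) and on the conventional subsets cDC1 and cDC2, with 6 samples of each. Per the labels, 3 samples of each subset came from HDAC1 Mx1-Cre mice, in which the recombinase is driven by the interferon-inducible Mx1 promoter and removes a floxed Hdac1 gene, and 3 from HDAC1 floxed mice without it. Every mouse had been given polyI:C, a double-stranded RNA mimic that itself induces type I interferon, and cells were sorted 2 weeks later, so the design holds no group without this exposure. The labels give no strain, age or sex.

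The count columns carried only codes, and each table named its subset. The 6 columns of a subset were therefore compared with the 6 of another, and no genotype was assigned to any of the 18 columns, because no code matches a single sample's labels. The spread within a subset consequently holds both genotypes, and per the labels each subset has 3 samples of each genotype. The sorting gates were lineage-negative, CD64-negative cells with intermediate CD11c, no CD11b and BST2 on the surface for pDC; XCR1+ CD11b- cells positive for CD11c and MHC class II for cDC1; and the XCR1- CD11b+ counterparts for cDC2. In such bulk samples, fewer cells that express a gene and less RNA of it per cell cannot be told apart.

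Type I interferons bind a receptor built of IFNAR1 and IFNAR2. The kinases TYK2, held by IFNAR1, and JAK1, held by IFNAR2, then phosphorylate STAT proteins such as STAT2, which joins IRF9 in the complex ISGF3 that switches on interferon-stimulated genes. IRF3, IRF5 and IRF7 act on the other side of the loop: nucleic acid sensors activate them and they induce interferon genes, and IRF7 is known for its role in the strong interferon output of pDC.

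For 4 of the 9 genes the level in pDC was at least 2-fold that in both conventional subsets, and the sequence before the start of each of these 4 is shown so that they can be set side by side. The RefSeq windows (build GRCm38.p6) cover the 250 bases before the RefSeq start; where the GENCODE M21 model of the gene begins inside that window, as for Irf7, the 193 bases outside it are printed. All are written 5′ to 3′ on the strand of the gene. Capitals mark a match to GAAANNGAAA, letters of the interferon-stimulated response element bound by ISGF3 and IRF proteins, or to TTCNNNGAA, letters of the site bound by STAT dimers, searched on both strands with overlaps allowed.
Ifnar1, chr16:91484965-91485214, plus strand: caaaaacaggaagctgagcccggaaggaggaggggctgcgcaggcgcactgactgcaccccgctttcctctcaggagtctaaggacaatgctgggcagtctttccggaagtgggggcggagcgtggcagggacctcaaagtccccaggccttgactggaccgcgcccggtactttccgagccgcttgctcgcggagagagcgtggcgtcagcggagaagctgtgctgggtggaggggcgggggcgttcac
Ifnar2, chr16:91372533-91372782, plus strand: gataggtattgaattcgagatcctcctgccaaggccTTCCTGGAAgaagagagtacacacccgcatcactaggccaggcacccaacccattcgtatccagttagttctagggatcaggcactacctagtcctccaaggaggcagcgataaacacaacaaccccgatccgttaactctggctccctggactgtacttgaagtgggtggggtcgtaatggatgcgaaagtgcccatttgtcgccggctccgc
Stat2, chr10:128270248-128270497, plus strand: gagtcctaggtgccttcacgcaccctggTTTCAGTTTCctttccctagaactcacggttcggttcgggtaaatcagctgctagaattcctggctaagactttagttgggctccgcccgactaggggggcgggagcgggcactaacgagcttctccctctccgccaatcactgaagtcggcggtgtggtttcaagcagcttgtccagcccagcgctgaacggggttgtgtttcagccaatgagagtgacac
Irf7, chr7:141266482-141266674, minus strand: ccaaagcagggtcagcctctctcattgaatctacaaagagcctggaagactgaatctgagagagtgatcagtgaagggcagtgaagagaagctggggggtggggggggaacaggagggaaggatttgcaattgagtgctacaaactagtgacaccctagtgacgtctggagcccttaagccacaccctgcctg

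All 9 genes had a RefSeq window. GAAANNGAAA was found in 2.98% of the 32851 windows of all genes and, among the 9 genes, in that of Stat2, where it begins at base -222 from the start and is read on the printed strand as its reverse complement. TTCNNNGAA was found in 7.02% of all windows and, among the 9, in that of Ifnar2, beginning at base -214. A match is a description of letters, and its absence says only that these letters are not in this window.

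Levels are given in CPM, counts scaled to a common library total, with library sizes adjusted by TMM, the trimmed mean of M values. Log2 fold changes, their standard errors (SE) and adjusted p-values come from edgeR's quasi-likelihood test fitted over all 18 columns, with Benjamini-Hochberg adjustment over the 13539 genes. A gene is said to be higher or lower where its adjusted p is below 0.05. In pDC against cDC1, 8 of the 9 genes differed, 6 higher and 2 lower in pDC, where 66.1% of all genes differed, 31.9% higher and 34.2% lower. In pDC against cDC2, again 8 of 9 differed, 6 higher and 2 lower in pDC, against 63.9% of all genes, 31.9% higher and 32.1% lower. In cDC1 against cDC2, 8 of 9 differed, 2 higher and 6 lower in cDC1, against 50.3% of all genes, 24.7% higher and 25.6% lower. The subsets differ so widely that the number of genes of the set that differ is not set apart from the background; the sizes are what follows.

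Differences of at least 2-fold upward in pDC were found for 4 of 9 genes against cDC1, where 13.1% of all genes reached that size, and for 4 of 9 against cDC2, where 12.6% did. The 4 were Ifnar1, Ifnar2, Stat2 and Irf7 in both comparisons, which share the pDC columns. In the other direction, 1 of 9 (Irf5) was at least 2-fold lower in pDC than in cDC1 beside 17.1% of all genes, and 0 of 9 were in pDC against cDC2 beside 17.4%. Between cDC1 and cDC2, Tyk2 alone of the 9 was at least 2-fold higher in cDC1, beside 8.10% of all genes, and Ifnar2 alone at least 2-fold lower, beside 9.59%. The median log2 fold change of the 9 genes was 0.75 in pDC against cDC1, 0.57 in pDC against cDC2 and -0.17 in cDC1 against cDC2. The corresponding medians over all genes were -0.04, -0.01 and 0.01.

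The scaling bears on the small differences that involve pDC. With column totals alone and no TMM factor, the median of all genes moved up by 0.21 on the log2 scale in pDC against cDC1 and by 0.21 in pDC against cDC2. The calls of all genes then split into 5522 higher and 3463 lower in pDC against cDC1, in place of 4324 higher and 4627 lower. They split into 5612 higher and 3344 lower in pDC against cDC2, in place of 4313 higher and 4345 lower. Changes below are relative to the TMM scale.

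**Figure D1:**
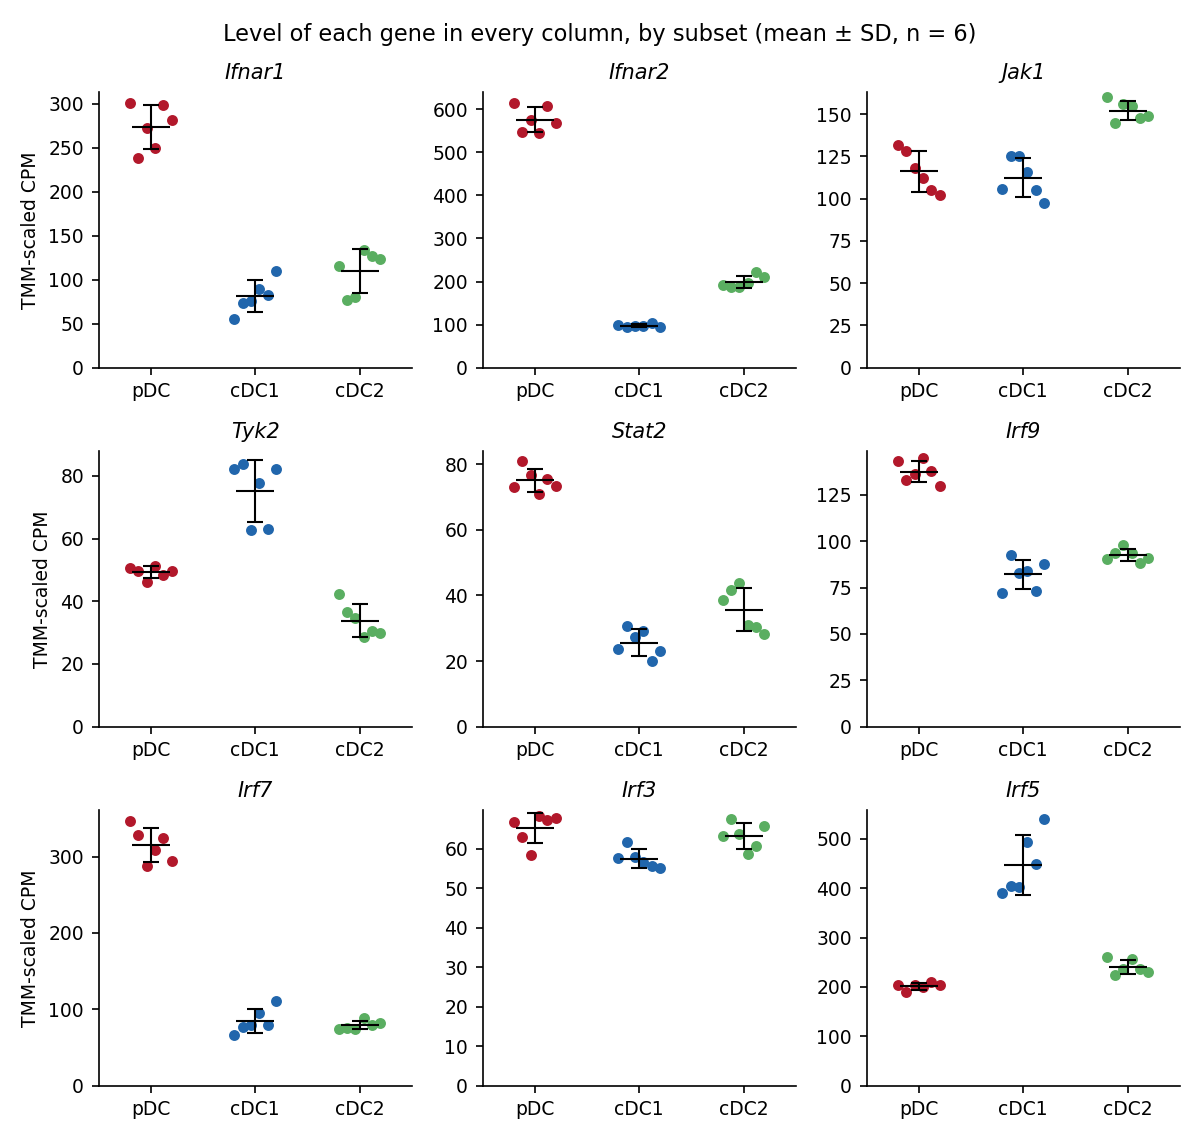
Level of each of the 9 genes in every column (vertical axes, TMM-scaled CPM, each starting at 0) for pDC, cDC1 and cDC2; points are columns, the long bar is the mean and the whiskers are ± 1 SD (n = 6 columns a subset). Ifnar1, Ifnar2, Stat2, Irf9 and Irf7 are highest in pDC, Irf5 and Tyk2 in cDC1 and Jak1 in cDC2.

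Both receptor chains were highest in pDC, and Ifnar2 had the largest fold difference of the 9 genes. Ifnar2 (ENSMUSG00000022971.18, chr16:91372783-91405589, plus strand, GRCm38, GENCODE M21), the chain that binds interferon with high affinity and docks JAK1, had a lowest, median and highest level of 544, 572 and 614 CPM in pDC, of 93.6, 97.4 and 104 CPM in cDC1, and of 187, 195 and 221 CPM in cDC2. No column of one subset reached the range of another, and the order was pDC, then cDC2, then cDC1. The level in pDC was 5.91-fold that in cDC1 (log2 fold change 2.56, SE 0.06, adjusted p = 4.4e-18) and 2.90-fold that in cDC2 (1.53, SE 0.06, adjusted p = 6.6e-15). The level in cDC1 was lower than that in cDC2, with a log2 fold change of -1.03 (SE 0.06, adjusted p = 1.5e-11). Columns of a subset lay close together for this gene, with a coefficient of variation of 5.15% in pDC, 3.92% in cDC1 and 6.99% in cDC2.

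Ifnar1 (ENSMUSG00000022967.13, chr16:91485238-91507441, plus strand) encodes the partner chain that docks TYK2 and lies downstream of Ifnar2 on the same strand. Its lowest, median and highest levels were 238, 277 and 301 CPM in pDC, 55.8, 79.4 and 110 CPM in cDC1, and 76.7, 120 and 134 CPM in cDC2. All 6 pDC columns lay above every conventional column, while the ranges of cDC1 and cDC2 overlapped. The level in pDC was 3.37-fold that in cDC1 (log2 fold change 1.75, SE 0.15, adjusted p = 3.3e-09) and 2.5-fold that in cDC2 (1.32, SE 0.15, adjusted p = 1.8e-07). Between the conventional subsets the level was lower in cDC1 (log2 fold change -0.43, SE 0.15, adjusted p = 0.022), a call that rests on single columns: the adjusted p was 0.051 without cDC1 column a157, 0.057 without cDC2 column a167 and 0.052 without cDC2 column a170. The 2 chains varied differently within the conventional subsets, since the coefficient of variation of Ifnar1 was 22.2% in cDC1 and 22.8% in cDC2.

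The receptor kinases showed no common direction. Tyk2 (ENSMUSG00000032175.11, chr9:21104068-21131243, minus strand), the kinase of IFNAR1, had lowest, median and highest levels of 46.3, 49.7 and 51.4 CPM in pDC, of 62.6, 79.9 and 83.7 CPM in cDC1, and of 28.5, 32.6 and 42.4 CPM in cDC2. The 3 ranges did not overlap, and the order was cDC1, then pDC, then cDC2. The level was lower in pDC than in cDC1 (log2 fold change -0.61, SE 0.10, adjusted p = 1.0e-05), 1.46-fold higher in pDC than in cDC2 (0.55, SE 0.10, adjusted p = 4.1e-05), and 2.23-fold higher in cDC1 than in cDC2 (1.16, SE 0.10, adjusted p = 3.0e-09). Tyk2 and Ifnar1, whose products pair at the receptor, stood in a different order over the subsets.

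Jak1 (ENSMUSG00000028530.14, chr4:101152367-101265282, minus strand) encodes the kinase of IFNAR2, which many cytokine receptors also use. Its lowest, median and highest levels were 102, 115 and 132 CPM in pDC, 97.5, 111 and 125 CPM in cDC1, and 145, 152 and 160 CPM in cDC2. Every cDC2 column lay above every other column, and the ranges of pDC and cDC1 overlapped. The level was lower in pDC than in cDC2 (log2 fold change -0.39, SE 0.08, adjusted p = 0.00013) and lower in cDC1 than in cDC2 (-0.43, SE 0.08, adjusted p = 6.1e-05). In pDC against cDC1 the log2 fold change was 0.05 (95% interval -0.11 to 0.20, adjusted p = 0.61); without TMM factors it was 0.26 (adjusted p = 0.0044), close to the shift of 0.21 of all genes.

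**Figure D2:**
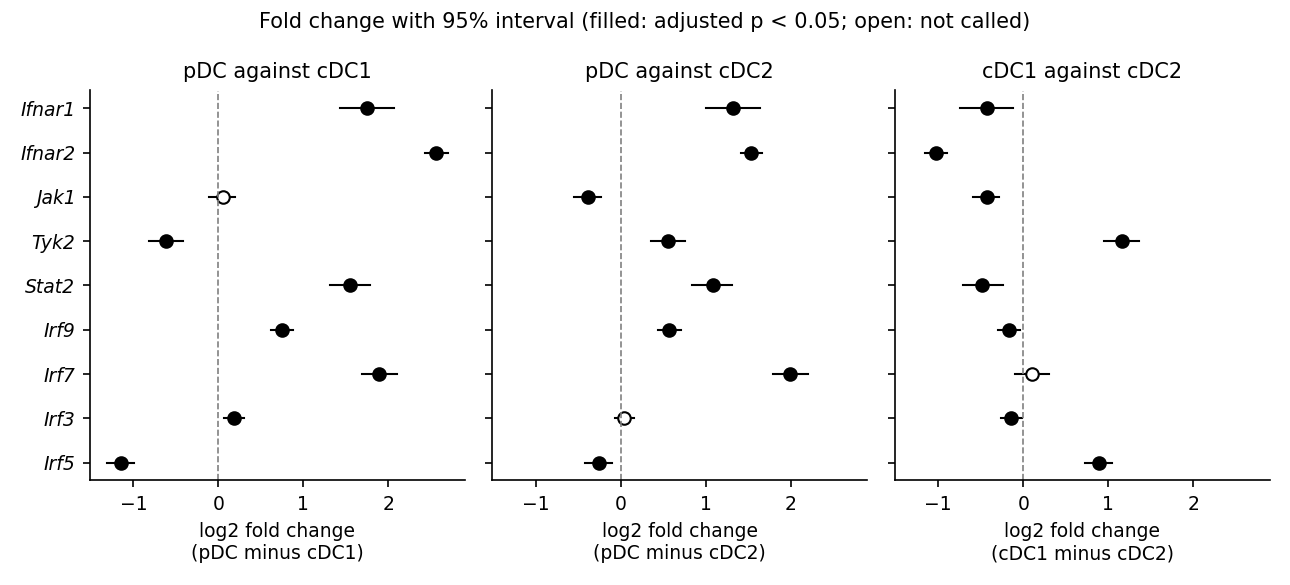
Log2 fold change of each gene (horizontal axes; first-named subset minus the second) with its 95% interval, in pDC against cDC1, pDC against cDC2 and cDC1 against cDC2; filled points have an adjusted p below 0.05 and open points do not. Ifnar1, Ifnar2, Stat2 and Irf7 lie beyond 1 in both comparisons of pDC, and Irf5 lies below 0 in both.

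Both ISGF3 subunits of the set were highest in pDC. Stat2 (ENSMUSG00000040033.16, chr10:128270559-128292849, plus strand), which supplies the transactivating domain of the complex and carries the GAAANNGAAA match shown above, had lowest, median and highest levels of 71.0, 74.6 and 81.0 CPM in pDC, of 19.9, 25.5 and 30.6 CPM in cDC1, and of 28.3, 34.8 and 43.8 CPM in cDC2. All pDC columns lay above all others, and cDC1 and cDC2 overlapped. The level in pDC was 2.93-fold that in cDC1 (log2 fold change 1.55, SE 0.11, adjusted p = 1.3e-10) and 2.11-fold that in cDC2 (1.08, SE 0.11, adjusted p = 3.4e-08). It was lower in cDC1 than in cDC2 (log2 fold change -0.48, SE 0.11, adjusted p = 0.0014).

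Irf9 (ENSMUSG00000002325.15, chr14:55603571-55610030, plus strand), the DNA-binding subunit of ISGF3, had lowest, median and highest levels of 130, 137 and 145 CPM in pDC, of 72.2, 83.6 and 92.3 CPM in cDC1, and of 88.5, 92.1 and 98.1 CPM in cDC2. The pDC columns again stood clear of the rest, by a smaller factor than for Stat2: 1.68-fold over cDC1 (log2 fold change 0.75, SE 0.06, adjusted p = 1.2e-09) and 1.49-fold over cDC2 (0.57, SE 0.06, adjusted p = 6.9e-08). The difference between cDC1 and cDC2 was -0.17 (SE 0.06, adjusted p = 0.027), and the call was lost without cDC1 column a157 (adjusted p = 0.063), cDC1 column a169 (adjusted p = 0.071) or cDC2 column a165 (adjusted p = 0.061).

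The interferon regulatory factors divided 3 ways. Irf7 (ENSMUSG00000025498.15, chr7:141262706-141266481, minus strand), the factor that drives interferon-alpha genes downstream of endosomal Toll-like receptors, had lowest, median and highest levels of 288, 316 and 347 CPM in pDC, of 66.7, 79.5 and 111 CPM in cDC1, and of 74.4, 78.1 and 88.1 CPM in cDC2. The lowest pDC column lay far above the highest conventional one. The level in pDC was 3.72-fold that in cDC1 (log2 fold change 1.89, SE 0.10, adjusted p = 4.2e-13) and 3.98-fold that in cDC2 (1.99, SE 0.10, adjusted p = 1.9e-13). In cDC1 against cDC2 the log2 fold change was 0.10 (95% interval -0.10 to 0.30, adjusted p = 0.42).

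Irf5 (ENSMUSG00000029771.12, chr6:29526625-29541871, plus strand), a factor known for inflammatory cytokine induction downstream of MyD88, ran the other way. Its lowest, median and highest levels were 189, 203 and 210 CPM in pDC, 390, 428 and 541 CPM in cDC1, and 224, 237 and 261 CPM in cDC2. No ranges overlapped. The level in cDC1 was 2.22-fold that in pDC (pDC minus cDC1 log2 fold change -1.15, SE 0.08, adjusted p = 3.4e-11) and 1.86-fold that in cDC2 (0.89, SE 0.08, adjusted p = 5.2e-09). The gap between pDC and cDC2 was small (log2 fold change -0.26, SE 0.08, adjusted p = 0.0061), and with no TMM factors it was -0.05 (adjusted p = 0.64).

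Irf3 (ENSMUSG00000003184.15, chr7:44997648-45002848, plus strand), the factor activated through cytosolic RNA and DNA sensors and through TLR3, differed little between the subsets. Its lowest, median and highest levels were 58.5, 67.1 and 68.2 CPM in pDC, 55.1, 57.1 and 61.8 CPM in cDC1, and 58.7, 63.5 and 67.5 CPM in cDC2. The 3 ranges overlapped. The log2 fold change was 0.18 (SE 0.06, adjusted p = 0.0075) in pDC against cDC1 and 0.04 (95% interval -0.07 to 0.16, adjusted p = 0.51) in pDC against cDC2, where it became 0.25 (adjusted p = 0.0059) with no TMM factors. In cDC1 against cDC2 it was -0.14 (SE 0.06, adjusted p = 0.048), and 13 of the 18 refits that left out a column put the adjusted p at or above 0.05.

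Ranges did not overlap for 7 of the 9 genes in pDC against cDC1, where this held for 45.3% of all genes, for 8 of 9 in pDC against cDC2, beside 48.7%, and for 4 of 9 in cDC1 against cDC2, beside 29.0%. Per kilobase of transcript, which allows levels of different genes to be set side by side, the order in pDC was Ifnar2, Irf7, Irf5, Ifnar1, Irf9, Irf3, Jak1, Stat2 and Tyk2. That order was the same with the length of the principal transcript and with the mean length of the coding transcripts in GENCODE M21. With the principal transcript, the pDC levels ran from 189 ± 9.73 CPM per kb for Ifnar2 through 89.9 ± 3.03 for Irf5 to 10.2 ± 0.378 for Tyk2 (SD, n = 6). Irf5 headed the order in both conventional subsets with either length, at 199 ± 26.8 CPM per kb in cDC1 and 108 ± 6.46 CPM per kb in cDC2 with the principal transcript, while Stat2 came last in cDC1. Exons of Irf9 and Ifnar2 overlap a gene on the same strand (Rnf31 and Gm21970), and exons of Jak1, Tyk2, Irf7, Irf3 and Irf5 overlap a gene on the opposite strand (Raver2, 1700084C06Rik, Phrf1, Bcl2l12 and Tnpo3). No source used here says whether the counting used strand, so reads from such stretches cannot be assigned with certainty.

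Variation within a subset was shared by some of the genes. In cDC1, column a172 was the highest for Ifnar1, Irf7 and Irf5, at 35.7%, 31.1% and 21% above the subset mean. Column a157 was the lowest for the same 3 genes, at -31.2%, -21.2% and -12.7%. In cDC2, Ifnar1 was low in columns a161 (-29.9%) and a165 (-27.0%). Over the 18 columns, the correlation of deviations from the subset mean was 0.73 between Ifnar1 and Irf7, 0.73 between Ifnar1 and Irf5, and 0.75 between Irf7 and Irf5. It was -0.65 between Ifnar2 and Stat2 and 0.48 between the receptor chains. These correlations are a description. Depth, scaling and the unassigned genotype vary between the columns, and their part in the correlations was not tested.

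**Figure D3:**
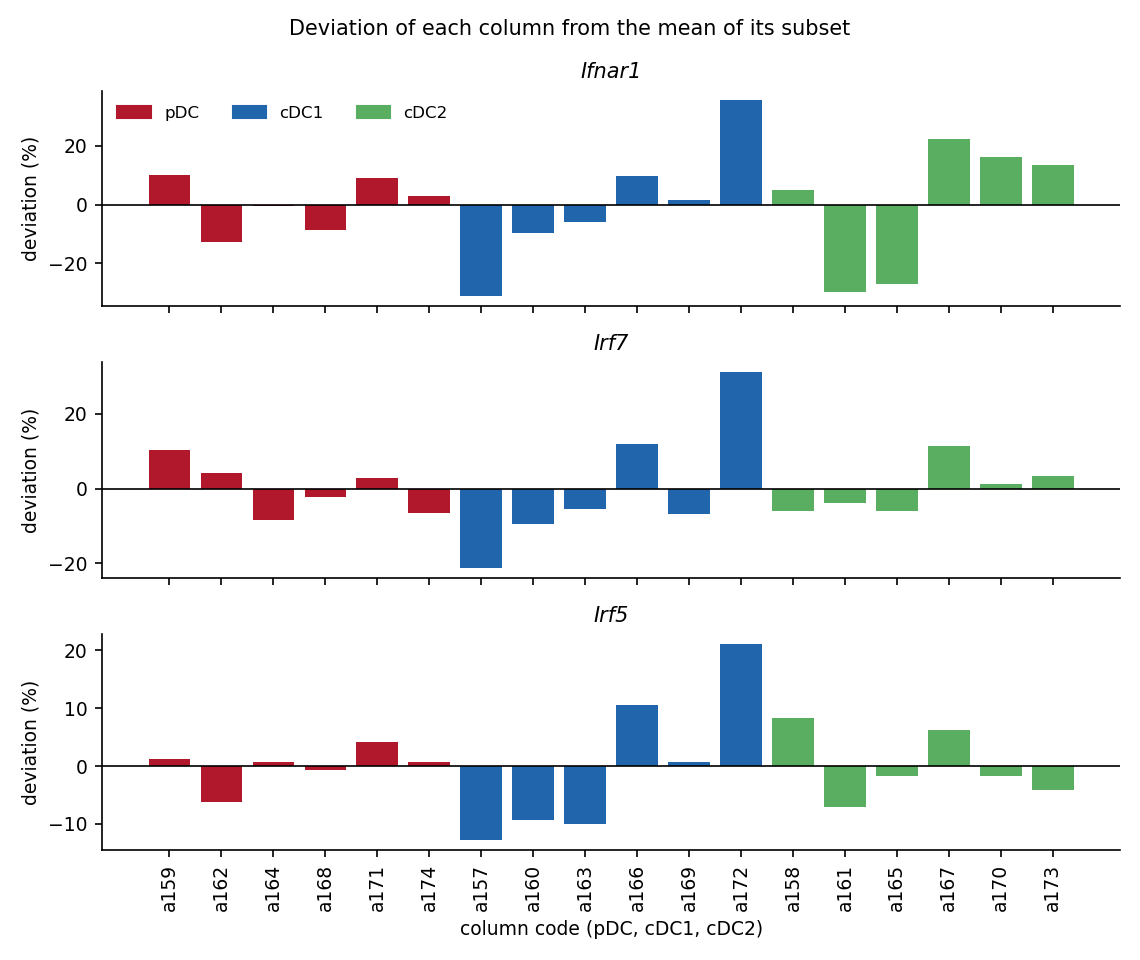
Deviation of each column from the mean of its subset (vertical axes, percent; horizontal axis, column codes grouped as pDC, cDC1 and cDC2) for Ifnar1, Irf7 and Irf5, 1 bar a column. In cDC1, column a172 is the highest and a157 the lowest for all 3 genes.

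The genes most like each member were taken as the 3 with the highest Pearson correlation of these deviations over 18 columns, among 7932 genes with a mean of at least 10 CPM. For Ifnar1 they were Gpr108 (0.94), Ist1 (0.93) and Rnf4 (0.91), and for Ifnar2 Ucp2 (0.87), Plpp5 (0.81) and Lrrc8d (0.80). For Jak1 they included Ncl (0.85) and Zfp951 (0.84), and for Tyk2 Inpp5b (0.91), Vps39 (0.87) and Pigv (0.86). Stat2 was nearest to Pnrc2 (0.90), Tapbpl (0.90) and Ttc9c (0.90), and Irf9 to Nufip1 (0.81), Sdhaf2 (0.79) and Zfp410 (0.77). Irf7 was nearest to Sec61a1 (0.87), Stt3a (0.85) and Trpv2 (0.85). Irf3 was nearest to Atg3 (0.85), Nabp2 (0.82) and Zfp511 (0.79), and Irf5 to Agfg1 (0.91), Cmtm6 (0.91) and Zc3h14 (0.88). None of the 9 genes was among the 3 nearest genes of another.

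Of 4 chains of the type II and type III receptors, 1 was higher and 3 lower in pDC than in cDC1, and 1 was higher and 3 lower in pDC than in cDC2; in cDC1 against cDC2, 1 was higher and 2 lower. Ifngr1, the ligand-binding chain for interferon-gamma, averaged 63.2 ± 5.36 CPM in pDC, 1072 ± 150 CPM in cDC1 and 939 ± 114 CPM in cDC2 (SD, n = 6 each). It was lower in pDC by log2 fold changes of -4.08 against cDC1 (SE 0.11, adjusted p = 1.8e-17) and -3.89 against cDC2 (SE 0.11, adjusted p = 2.9e-17). Ifnlr1, the interferon-lambda chain, ranged from 0.0283 to 0.138 CPM in pDC (1 to 5 counts a column), from 4.16 to 5.74 CPM in cDC1 and from 0.2 to 1.33 CPM in cDC2. Il10rb, the shared chain of the type III receptor and the 1 chain of the 4 that was higher in pDC in both comparisons, averaged 200 ± 14.4 CPM in pDC, 94.4 ± 12.2 CPM in cDC1 and 150 ± 8.06 CPM in cDC2.

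Of the 7 other Janus kinases and STATs, 3 were higher and 3 lower in pDC than in cDC1, 0 higher and 5 lower in pDC than in cDC2, and 0 higher and 5 lower in cDC1 than in cDC2. With no TMM factors the first of these comparisons gave 3 higher and 1 lower, and the second 1 higher and 3 lower. Jak2, the kinase of the interferon-gamma receptor, had a median of 51.1 CPM in pDC, 116 CPM in cDC1 and 156 CPM in cDC2 (n = 6 each), and it was lower in pDC than in both (log2 fold changes -1.21 and -1.62, adjusted p = 3.2e-09 and 3.3e-11). Stat4, which interleukin-12 and type I interferon can activate, averaged 7.96 ± 1.25 CPM in pDC, 11.8 ± 3.48 CPM in cDC1 and 42.9 ± 12.6 CPM in cDC2. Jak3, the kinase of the common gamma chain, averaged 20.7 ± 2.30 CPM in pDC, 9.92 ± 2.87 CPM in cDC1 and 25.3 ± 2.18 CPM in cDC2. Stat4 was higher in cDC2, and Jak3 lower in cDC1, than in both other subsets.

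Of the 5 other interferon regulatory factors, 3 were higher and 2 lower in pDC than in cDC1, 2 higher and 1 lower in pDC than in cDC2, and 3 higher and 2 lower in cDC1 than in cDC2. Irf8, a lineage factor of cDC1 and pDC, averaged 4033 ± 160 CPM in pDC, 1712 ± 188 CPM in cDC1 and 49.7 ± 16.5 CPM in cDC2. Irf4, which marks the cDC2 lineage, averaged 34.8 ± 8.14 CPM in pDC, 7.37 ± 3.89 CPM in cDC1 and 39.1 ± 14.7 CPM in cDC2. Irf8 was 81.2-fold higher in pDC than in cDC2 (log2 fold change 6.34, SE 0.20, adjusted p = 1.9e-16) and 34.5-fold higher in cDC1 than in cDC2 (5.11, SE 0.19, adjusted p = 1.1e-14), a wider range than that of any of the 9 genes.

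The sensors, adaptors and kinases upstream of IRF3, IRF5 and IRF7 shared no direction. Of 20 tested genes, 8 were higher and 9 lower in pDC than in cDC1, 10 higher and 8 lower in pDC than in cDC2, and 3 higher and 10 lower in cDC1 than in cDC2; Tlr8, the 1 further gene of the list, was not listed for pDC. With no TMM factors the first 2 counts became 8 higher and 6 lower, and 10 higher and 6 lower. Tlr7, the endosomal receptor for single-stranded RNA, averaged 88.2 ± 8.37 CPM in pDC, 1.15 ± 0.872 CPM in cDC1 and 28.2 ± 6.59 CPM in cDC2. Tlr3, the receptor for double-stranded RNA, averaged 117 ± 11.9 CPM in pDC, 122 ± 11.0 CPM in cDC1 and 2.43 ± 0.814 CPM in cDC2. Both the adaptor Tasl and the transporter Slc15a4, which link endosomal receptors to IRF5, were higher in pDC, with log2 fold changes of 3.25 and 2.21 against cDC1 (adjusted p = 3.9e-13 and 2.2e-13) and of 1.68 and 0.47 against cDC2 (adjusted p = 4.4e-09 and 0.0005). Tasl and Slc15a4 were chosen after their values were seen. Irf5 itself was lower in pDC than in cDC1 and, on the TMM scale, than in cDC2. Of the cytosolic sensors, Cgas, the DNA sensor, averaged 1.30 ± 0.284 CPM in pDC, 10.1 ± 1.58 CPM in cDC1 and 10.4 ± 2.22 CPM in cDC2, and Ddx58, which encodes the RNA sensor RIG-I, averaged 2.29 ± 0.846 CPM in pDC, 2.20 ± 0.614 CPM in cDC1 and 26.4 ± 2.89 CPM in cDC2. Cgas was lower in pDC than in both others (log2 fold changes -2.95 and -3.00, adjusted p = 5.0e-12 and 4.0e-12), and Ddx58 was higher in cDC2 than in both others.

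Of 12 negative regulators of the receptor and of JAK-STAT signalling, 5 were higher and 6 lower in pDC than in cDC1, 3 higher and 8 lower in pDC than in cDC2, and 2 higher and 7 lower in cDC1 than in cDC2. With no TMM factors the counts against cDC1 were 5 higher and 4 lower, and those against cDC2 4 higher and 6 lower. Isg15, whose product stabilizes the receptor inhibitor USP18 in human cells, averaged 14.6 ± 3.32 CPM in pDC, 15.2 ± 2.93 CPM in cDC1 and 103 ± 10.3 CPM in cDC2. Axl, a receptor tyrosine kinase that acts with IFNAR to restrain dendritic cells, averaged 0.690 ± 0.243 CPM in pDC, 2.30 ± 1.07 CPM in cDC1 and 11.2 ± 3.67 CPM in cDC2. Ptpn6, the phosphatase SHP-1, averaged 875 ± 46.5 CPM in pDC, 262 ± 29.9 CPM in cDC1 and 676 ± 53.7 CPM in cDC2. The rule that chose these 3 required a call in the same direction for 1 subset against both others, so their passing is no separate result. Isg15 and Axl were higher in cDC2, and Ptpn6 lower in cDC1, than in both others.

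Genes that ISGF3 is known to induce did not follow the order of its subunits. Of 24 such genes, 8 were higher, 4 lower and 12 not called in pDC against cDC1, with a median log2 fold change of 0.10; with no TMM factors 13 were higher and 4 lower. In pDC against cDC2, 3 were higher, 16 lower and 5 not called, with a median of -1.58, and in cDC1 against cDC2, 4 were higher, 18 lower and 2 not called, with a median of -1.67. Ifih1 and Ddx58 are counted here and among the sensors. Rtp4 averaged 0.562 ± 0.286 CPM in pDC, 1.45 ± 0.731 CPM in cDC1 and 88.7 ± 12.8 CPM in cDC2, and Oas1a, a sensor of double-stranded RNA that activates RNase L, averaged 2.65 ± 0.794 CPM in pDC, 2.13 ± 0.358 CPM in cDC1 and 61.1 ± 9.25 CPM in cDC2. Oas2 lay between 0.0337 and 0.172 CPM in pDC, between 0 and 0.208 CPM in cDC1 and between 3.11 and 10.1 CPM in cDC2. Rtp4 and Oas1a were higher in cDC2 than in both other subsets, with adjusted p-values from 7.0e-14 to 1.4e-12 for Rtp4 and from 3.0e-15 to 8.6e-15 for Oas1a. Bst2 averaged 1574 ± 229 CPM in pDC, 46.0 ± 7.75 CPM in cDC1 and 35.9 ± 6.71 CPM in cDC2, but its protein was part of the pDC gate. Stat2, Irf9 and Irf7, the genes of the set that interferon itself is known to raise, were higher in pDC than in cDC2, while 16 of these 24 genes were lower.

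**Figure D4:**
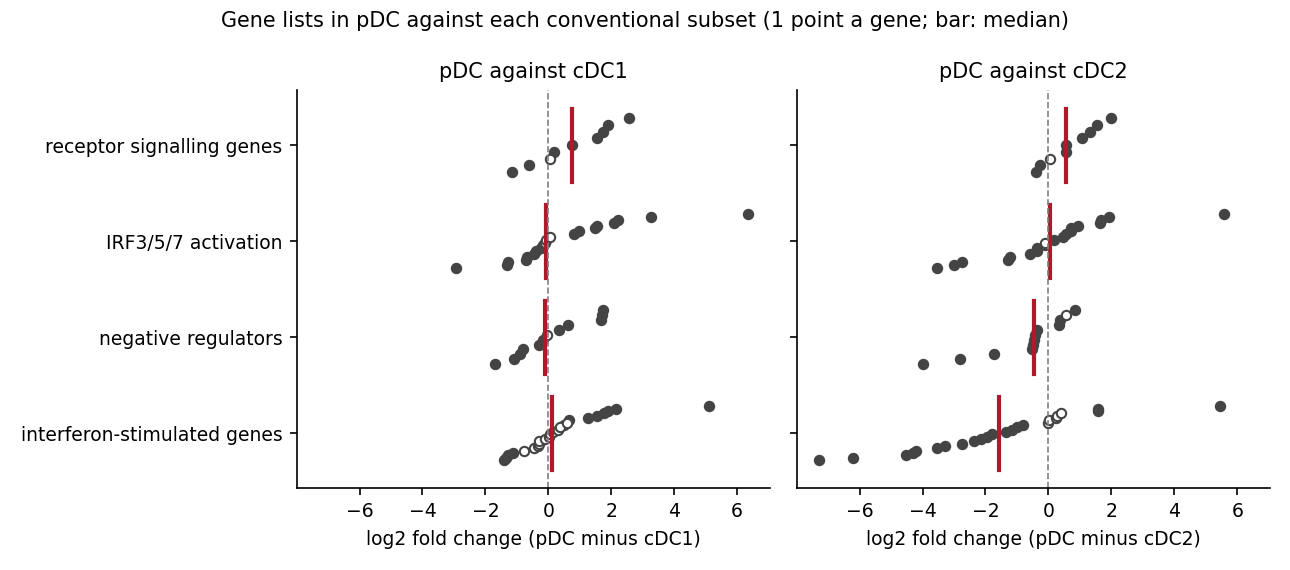
Log2 fold change of each gene (horizontal axes; pDC minus cDC1 at left, pDC minus cDC2 at right) in 4 gene lists, 1 point a gene, filled where the adjusted p is below 0.05 and open where it is not; the bar is the median. Interferon-stimulated genes have a median of 0.10 against cDC1 and of -1.58 against cDC2, whereas the 9 receptor signalling genes have medians of 0.75 and 0.57.

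The columns held 23530860 to 37105002 counts. All 10 pDC markers were higher in pDC than in both other subsets. All 10 cDC1 markers and all 10 cDC2 markers separated cDC1 from cDC2 in the labelled direction. Among these markers, Bst2, Xcr1 and Itgam, which encodes CD11b, are not independent of the sort, because their proteins were part of the gates. The pDC list summed to a median of 21132 CPM in pDC, 209 CPM in cDC1 and 191 CPM in cDC2. The cDC1 list summed to 516 to 685 CPM in pDC, 5552 to 8644 CPM in cDC1 and 251 to 354 CPM in cDC2, and the cDC2 list to 1533 to 2014 CPM in pDC, 46.4 to 126 CPM in cDC1 and 1404 to 1865 CPM in cDC2. Of the 10 cDC2 markers, 3 were higher and 6 lower in pDC than in cDC2, and Cd209a averaged 1001 ± 194 CPM in pDC, 36.4 ± 17.2 CPM in cDC1 and 425 ± 95.7 CPM in cDC2, so the sum does not set cDC2 apart from pDC. Hdac1, the floxed gene, spanned 8.45 to 113 CPM in pDC, 5.57 to 77.3 CPM in cDC1 and 6.02 to 83.3 CPM in cDC2. Markers of other cells moved with the subsets. The 7 B cell markers summed to 1831 to 2141 CPM in pDC, 494 to 647 CPM in cDC1 and 330 to 464 CPM in cDC2, and the 5 plasma cell markers to 845 to 1276 CPM in pDC, 286 to 1205 CPM in cDC1 and 151 to 209 CPM in cDC2. Of the 6 B cell markers tested, 2 were higher and 3 lower in pDC than in cDC1, and 5 were higher and 1 lower in pDC than in cDC2; Ighm alone averaged 1903 ± 136 CPM in pDC, 413 ± 33.6 CPM in cDC1 and 306 ± 42.1 CPM in cDC2. Of the 5 plasma cell markers, 3 were higher, 0 lower and 2 not called in pDC against cDC1, and 5 were higher in pDC than in cDC2. Xbp1 averaged 659 ± 44.7 CPM in pDC, 204 ± 31.5 CPM in cDC1 and 153 ± 10.4 CPM in cDC2. The antibody gene Igha had its highest mean in cDC1, with 122 ± 98 CPM in pDC, 305 ± 223 CPM in cDC1 and 15.3 ± 16 CPM in cDC2. The 10 monocyte and macrophage markers summed to 5974 to 7093 CPM in pDC, 1017 to 2515 CPM in cDC1 and 3201 to 11115 CPM in cDC2. Only 1 of these 10 was higher and 9 were lower in pDC than in cDC1, and likewise 1 was higher and 9 lower in pDC than in cDC2. Ly6c2 averaged 6432 ± 487 CPM in pDC, 26.2 ± 6.09 CPM in cDC1 and 5.77 ± 1.98 CPM in cDC2, and Lyz2 24.8 ± 13.3 CPM in pDC, 1420 ± 598 CPM in cDC1 and 5195 ± 3055 CPM in cDC2. The erythroid list summed to 2205 to 6028 CPM in pDC, 2963 to 9327 CPM in cDC1 and 3367 to 6017 CPM in cDC2. T and NK cell markers, 7 of 8 of them listed, summed to 3.78 to 11.7 CPM in pDC, 23.6 to 34.1 CPM in cDC1 and 5.40 to 10 CPM in cDC2, and the 8 granulocyte markers, of which 5 were listed for pDC, 8 for cDC1 and 6 for cDC2, to 11.1 to 177 CPM in pDC, 212 to 912 CPM in cDC1 and 23.3 to 122 CPM in cDC2. No listed marker was at 0 in all columns of a subset, and the part of these cells in the differences above was not tested.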

How the data were processed

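RNA-seq of 18 sorted spleen samples was analysed, 6 for each of 3 dendritic cell subsets. The authors deposited raw counts, as whole numbers per gene, in 3 tables named for the subsets. Per the submitters' processing notes, kallisto, DESeq2 and GRCm38 were used; their roles and versions are not given in the sources used here. Per the labels' protocols, RNA came from cells sorted into Trizol LS. The normalized tables were not used, because each subset was scaled separately.

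Columns were grouped by the subset in the table's name. The 18 columns used carry codes, and 0 were matched to a single sample, so genotype and replicate number entered no test. The labels do not say that samples came from separate animals, so p-values measure the spread between these columns, which may be partly technical and includes both genotypes.

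The 3 tables were joined on 15219 genes listed in each, with library size taken from the column's own table (23530860 to 37105002 counts). After edgeR's filterByExpr, 13539 genes were fitted with TMM factors and the quasi-likelihood test (edgeR 4.0.16, limma 3.58.1, R 4.3.3), all subsets in 1 fit, and called at an adjusted p below 0.05. The script was tested on simulated data. Alternatives were other size factors, no filter, all genes listed in any table, other library sizes, DESeq2 1.42.0, limma-voom, only the subsets compared, and each column left out.

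The 9 genes and the other gene lists were chosen with earlier results of these data known. From each other list, at most 4 genes were named: those called in the same direction for 1 subset against both others, with an absolute log2 fold change of at least 1, ordered by the smaller change. Il10rb, Tasl and Slc15a4 were named outside this rule, after their values were seen. The rule did not cover the marker lists, so the markers Cd209a, Ighm, Xbp1, Igha, Ly6c2 and Lyz2 were also named outside it. Likeness was measured on log2 CPM with a prior count of 2. Exon overlaps and lengths were taken from GENCODE M21 and promoter sequence from RefSeq. A few genes that these rules would name are not reported here.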

Additional observations from a re-analysis of the deposited data

Results flagged for a closer look

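Within each subset, the highest and the lowest column were compared with the other 5 for 28 genes, the 9 receptor signalling genes among them, which gave 84 groups. A gap to the nearest column above 0.625 of the whole range was taken as far from the others; chance gives such a gap in about 1 of 20 groups. None of the 27 groups of the 9 genes had one, and 2 of the other groups did. Jak2 in cDC1 was 156.7 CPM in column a157, where the others ran from 96.4 to 118 CPM. Oas1a in cDC1 was 1.441 CPM in column a166, where the others ran from 2.11 to 2.42 CPM.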

How the results depend on the processing

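The 9 genes in 3 comparisons gave 27 log2 fold changes, each recomputed under 27 alternatives, 18 of which left out 1 column. Of the 729 values, 700 kept their direction and their side of the threshold, 27 kept the direction and lost the call, 2 kept the direction and gained one, and 0 changed direction. The number of the 9 genes that differed between cDC1 and cDC2 was 8 in the fit reported; it was 5 with only the subsets compared, and ranged from 5 to 8 when 1 column was left out, with 5 without cDC1 column a157. With only the subsets compared, the adjusted p for cDC1 against cDC2 was 0.054 for Ifnar1 and 0.081 for Irf9. The counts in both comparisons of pDC stayed at 8 when any column was left out. Without TMM factors, Jak1 in pDC against cDC1 (0.26) and Irf3 in pDC against cDC2 (0.25) passed the threshold, and Irf5 in pDC against cDC2 (-0.05, adjusted p = 0.64), and Irf9 (adjusted p = 0.076) and Irf3 (adjusted p = 0.12) in cDC1 against cDC2 did not. The cause of the other changes was not tested. The numbers of all genes called ranged from 8622 to 9247 in pDC against cDC1, 8420 to 8956 in pDC against cDC2 and 6365 to 7026 in cDC1 against cDC2. No paired analysis was possible because replicate numbers stand in the sample titles and not in the column codes. Depth limits genes with a few counts a column, such as Ifnlr1 in pDC and Oas2 in pDC and cDC1, for which levels and no folds are given.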

Other observations

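Of 15 interferon ligand genes looked for, 3 were listed, all for pDC, and none entered a test. Ifnb1 had 4, 3, 15, 0, 4 and 13 counts in pDC columns a159, a162, a164, a168, a171 and a174. Ifna2 had 1, 5, 4, 0, 0 and 0 counts in the same columns, and Ifnk had 6, 8, 2, 5, 5 and 6 counts. The highest of these values, 15 counts of Ifnb1, was 0.506 CPM, while the lowest Irf7 level in pDC was 288 CPM.

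The columns could not be matched to a genotype, and Hdac1, the gene targeted by the recombinase, is given for each as a value. In pDC, Hdac1 was 109 CPM in column a159, 102 CPM in a162, 113 CPM in a164, 11.6 CPM in a168, 8.45 CPM in a171 and 12.9 CPM in a174. In cDC1, it was 57.8 CPM in a157, 76.0 CPM in a160, 77.3 CPM in a163, 6.05 CPM in a166, 5.57 CPM in a169 and 8.78 CPM in a172. In cDC2, it was 75.9 CPM in a158, 70.6 CPM in a161, 83.3 CPM in a165, 6.57 CPM in a167, 6.02 CPM in a170 and 7.99 CPM in a173. The values fell into 2 separate clusters of 3 columns in each subset. No column was given a genotype from them, and the receptor signalling genes were not compared between the clusters.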
